A study of Rattus norvegicus with 6 samples.

Results

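Heat shock proteins and their cochaperones were examined in the hippocampus of male Sprague Dawley rats that had received oligomers of amyloid-beta (Aβ1-42) through a cannula into both lateral ventricles (AD, 3 arrays), against rats given the vehicle by the same route (Sham, 3 arrays). The genes were those whose RefSeq rat symbol begins with Hspa, Hspb, Hspd, Hspe, Hsph, Hsp90 or Dnaj, with the probe of the highest mean signal standing for each gene. This gave 65 genes of the 15168 named genes on the array, measured by 81 probes, and 58 of them could be tested. All rats were adults of the same strain and sex, no transgene is named for either group, and the time between injection and dissection is not given in the sources used here. The model is an injected one. The samples were hippocampal tissue, so fewer cells of a type and less RNA per cell cannot be told apart. The labels do not tie an array to an animal, so each p-value measures the spread between these tissue samples only.

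Heat shock proteins are molecular chaperones that hold, fold or hand over unfolded proteins. HSP70 proteins bind and release stretches of unfolded protein in a cycle driven by ATP, J proteins (the Dnaj genes) deliver the substrates and start that cycle, HSP90 matures kinases and receptors, the small HSPs hold misfolded proteins without ATP, and the mitochondrial pair HSP60 and HSP10 folds proteins imported into the organelle. Many of these genes are switched on by heat shock factors after heat or protein damage, and chaperones are studied in the brain because they act on amyloid, tau and other proteins that aggregate.

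The comparison asked which of these genes differed after Aβ injection. Of the 58 tested genes, 4 rose (Hspb6, Hspb1, Hspb8 and Dnaja4) and 12 fell (Dnajc9, Hspa4, Hspbap1, Hsp90aa1, Hspa14, Dnajc2, Dnajc10, Dnajc24, Dnajc18, Hspe1, Dnajc19 and Hspd1) at a limma adjusted p under 0.05. Over all named genes with 1 probe per gene, 4.08% rose and 10.8% fell, together 14.9% of 11966 genes, against 6.90% and 20.7% of the heat shock genes. Over all 22818 tested probes 12.5% passed, with 4.15% higher and 8.39% lower. The median change of the 58 genes was -0.14 on the log2 scale, beside -0.05 for all named genes and -0.01 for all probes. No member changed 2-fold, the largest size of a change being 0.88 on the log2 scale (Dnajc9), so 0 members met the study's thresholds of a fold change of at least 2 with an unadjusted p under 0.05, which 1.92% of named genes and 2.25% of all tested probes met. Groups that did not overlap (all AD values on the same side of all Sham values) were found for 30 members, 8 higher and 22 lower, where 44.0% of named genes did not overlap, 15.7% higher and 28.3% lower.

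**Figure D1:**
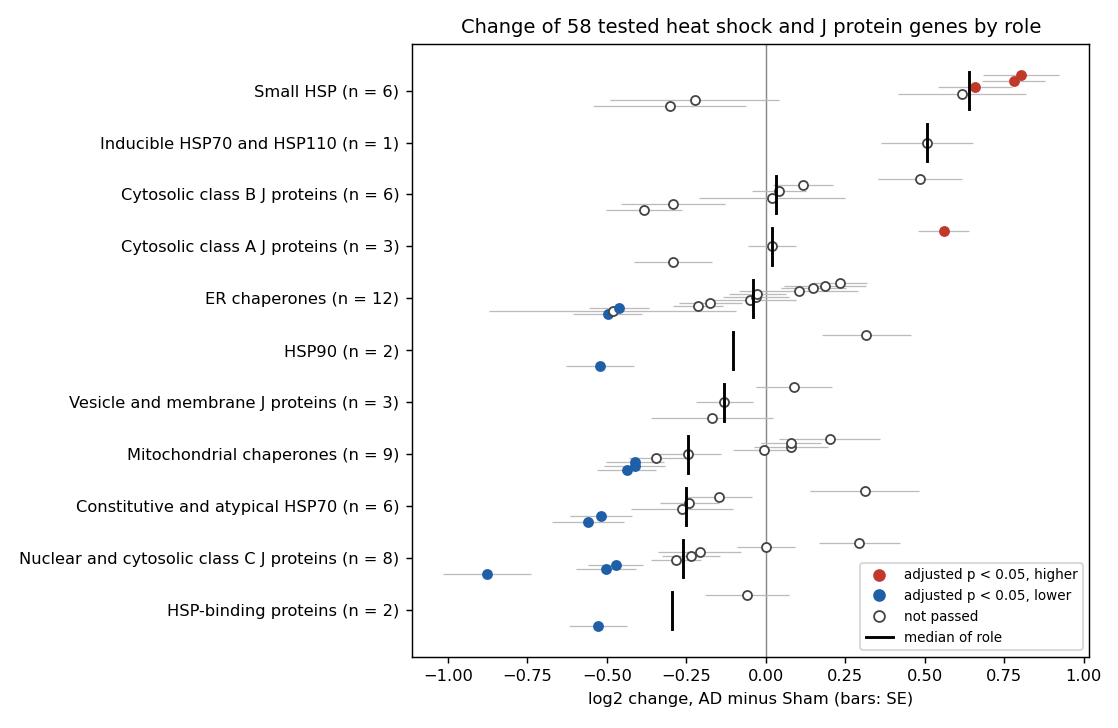
Each point is the log2 change (AD minus Sham, n = 3 arrays per group, bars SE) of 1 tested gene, grouped by role and ordered by the median of the role (black line). Red and blue points passed an adjusted p of 0.05. The 3 red small HSP points lie between 0.66 and 0.80, and the 12 blue points lie between -0.88 and -0.41.

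The 16 calls were close to the threshold, with adjusted p from 0.019 to 0.044, and they depended on every array but Sham replicate 3. Without AD replicate 1, 2 or 3, or without Sham replicate 1 or 2, 0 members passed in limma (20 to 27 had an unadjusted p under 0.05), while without Sham replicate 3 there were 21 calls. The same was seen over all 22818 tested probes, where these fits called 0, 0, 2, 0 and 0 probes, and 4453 without Sham replicate 3. The 3 AD arrays were scanned together, Sham replicates 1 and 2 in a second scan on the same day and Sham replicate 3 on another day. Scan and group therefore cannot be told apart, and with scan as a random block 0 of 22766 probes and 0 members passed (19 members had an unadjusted p under 0.05). All 16 changes kept their sign under all 20 alternatives tried, but for many of these the sign could not turn. The 16 genes had groups without overlap, so leaving out an array could not reverse a change. Alternatives that only change the filter or the test leave the estimate the same. The median SD over members was 0.080 in AD and 0.122 in Sham on the log2 scale, beside 0.115 and 0.176 over all tested probes.

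**Figure D2:**
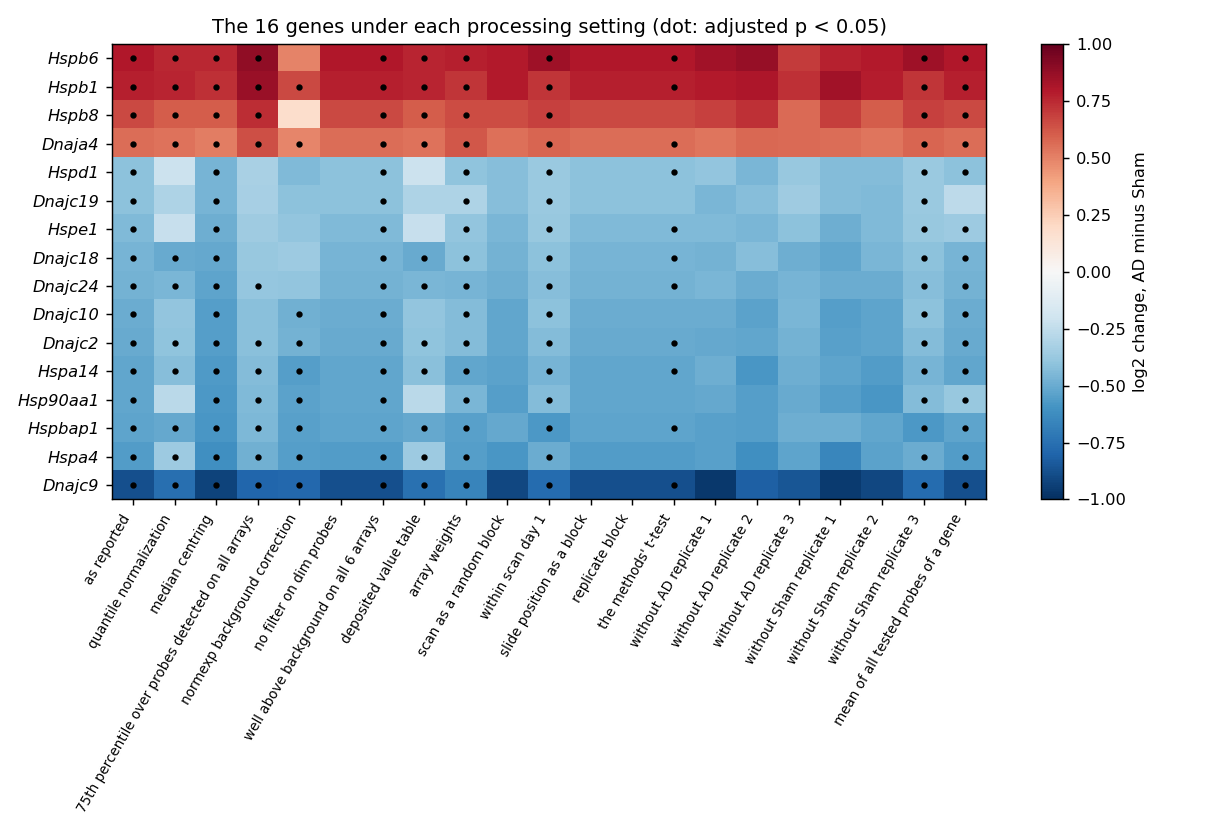
Log2 change (colour, AD minus Sham) of the 16 called genes in the reported fit (first column) and under each of the 20 alternatives, with a dot where the adjusted p was under 0.05. Colours keep their sign along every line, while columns without a dot are settings with 0 calls among these genes.

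The small HSPs, which form large assemblies with a conserved crystallin domain, held 6 tested genes, and 3 rose and 0 fell, with a median change of 0.64. Hspb1 encodes HSP27, which binds misfolded proteins and actin filaments. Its log2 levels relative to the 75th percentile of the array were -0.34, -0.37 and -0.21 on the AD arrays and -0.97, -1.08 and -1.21 on the Sham arrays. All AD values lay above all Sham values, with a mean of -0.31 ± 0.08 against -1.08 ± 0.12 (SD, n = 3 each), a 1.72-fold higher signal (log2 change 0.78 ± 0.10, SE, adjusted p = 0.019).

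Hspb6 encodes HSP20, a small HSP known from muscle and also made in brain. It measured -1.88, -1.94 and -1.60 in AD and -2.68, -2.63 and -2.53 in Sham. The groups were well apart, AD replicate 3 being the highest, and the signal was 1.74-fold higher in AD (log2 change 0.80 ± 0.12, SE, adjusted p = 0.021). Hspb8 encodes HSP22, the partner of BAG3 in chaperone-assisted autophagy. It measured -3.08, -3.17 and -2.84 in AD and -3.63, -3.80 and -3.64 in Sham, again without overlap and with AD replicate 3 the highest. Its change was 0.66 ± 0.12 (SE, adjusted p = 0.027), or 1.58-fold. With normexp background correction, which lowered the median change of all probes to -0.15, Hspb1 kept a change of 0.66 (adjusted p = 0.021), but Hspb6 fell short at 0.50 (0.066) and Hspb8 at 0.18 (0.40). Relative to that median, the 3 changes were 0.80, 0.64 and 0.32. Subtracting that median makes the falls after normexp correction smaller, as for Hspd1 (from -0.44 to -0.30) and Hspe1 (from -0.40 to -0.25).

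The other small HSPs were more variable. Hspb2, which is expressed mainly in muscle, measured 0.49, 0.38 and 0.42 in AD and -0.51, -0.31 and 0.26 in Sham. Sham replicate 3 lay close to the AD arrays, and the change of 0.62 ± 0.20 (SE) did not pass (adjusted p = 0.096), although it did without Sham replicate 3. Hspb7 (change -0.30, adjusted p = 0.44) lacked a value on Sham replicate 2, where its spot was marked as an outlier, and its 2 remaining Sham values, 0.78 and 1.54, overlapped the AD values of 0.75, 0.96 and 0.87. The testis gene Hspb9 had a change of -0.22 (adjusted p = 0.60). Hspb3 stayed at background on all arrays and was not tested. Cryab, the crystallin that belongs to the same protein family under another symbol, had a change of 0.17 (adjusted p = 0.50).

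**Figure D3:**
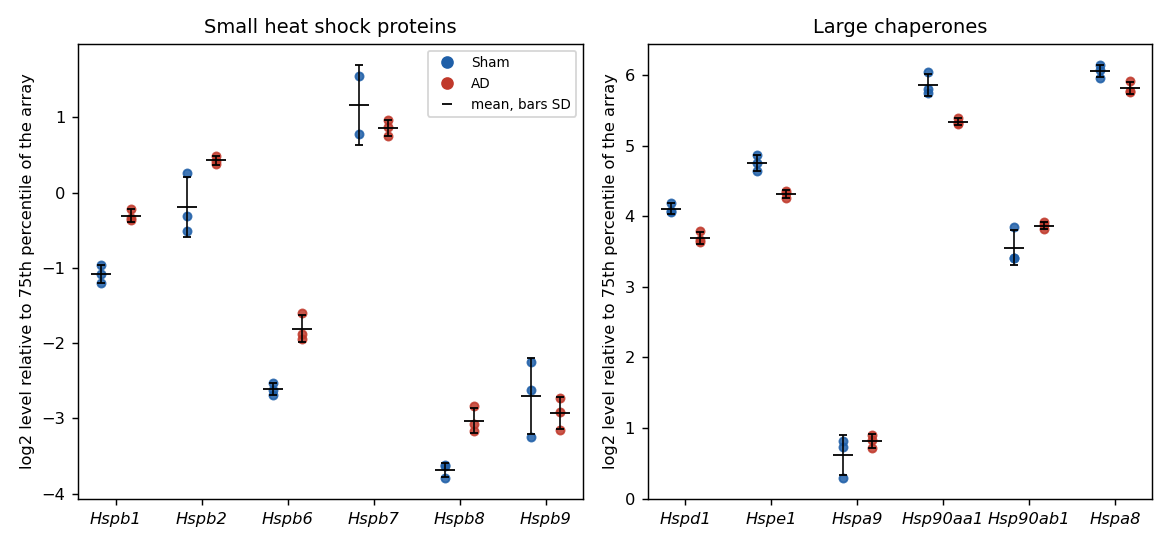
Log2 level relative to the 75th percentile of each array for the 6 tested small HSP genes (left) and 6 larger chaperones (right), with each array as a point (Sham blue, AD red) and the mean with SD as bars. In Hspb1, Hspb6 and Hspb8 the AD points lie above the Sham points, and in Hspd1, Hspe1 and Hsp90aa1 they lie below them. Levels of different genes come from different probes and are not comparable with each other.

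The promoters of the 3 raised small HSP genes are printed because heat shock genes are usually recognised by their heat shock elements, which are repeats of nGAAn in alternating orientation. The sequences run from 250 bases before to 50 after the start in RefSeq (GRCr8), and capitals mark pairs of units, either GAANNTTC or TTCNNGAA. The Hspb1 window is chr12:26432252-26432551 (minus strand), that of Hspb6 chr1:94934122-94934421 (plus strand) and that of Hspb8 chr12:45837058-45837357 (plus strand).
Hspb1: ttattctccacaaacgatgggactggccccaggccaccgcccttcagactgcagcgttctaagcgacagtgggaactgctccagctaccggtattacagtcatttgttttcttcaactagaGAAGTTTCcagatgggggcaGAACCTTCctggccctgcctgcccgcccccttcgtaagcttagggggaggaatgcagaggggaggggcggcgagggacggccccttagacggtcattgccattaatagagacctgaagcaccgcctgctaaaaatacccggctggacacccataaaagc
Hspb6: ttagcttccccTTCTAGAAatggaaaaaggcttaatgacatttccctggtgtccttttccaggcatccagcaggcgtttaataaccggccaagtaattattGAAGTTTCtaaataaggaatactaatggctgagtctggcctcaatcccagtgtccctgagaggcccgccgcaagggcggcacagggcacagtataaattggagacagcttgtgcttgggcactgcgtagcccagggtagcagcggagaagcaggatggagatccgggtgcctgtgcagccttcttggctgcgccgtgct
Hspb8: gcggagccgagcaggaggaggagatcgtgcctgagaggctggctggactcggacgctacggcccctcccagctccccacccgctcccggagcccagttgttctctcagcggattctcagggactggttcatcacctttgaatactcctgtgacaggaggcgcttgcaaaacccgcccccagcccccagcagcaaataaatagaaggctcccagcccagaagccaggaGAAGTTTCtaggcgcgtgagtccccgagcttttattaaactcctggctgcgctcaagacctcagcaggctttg
All 3 windows held GAANNTTC, which reads the same on both strands and occurs in 8.59% of the 33469 promoters in the table. Among heat shock genes 12 of the 52 with a promoter in the table held it, among them 3 that fell. The tail-to-tail pair TTCNNGAA occurs in 8.77% of promoters and in 10 of the 52. The full element of 3 units (GAANNTTCNNGAA, or TTCNNGAANNTTC on the other strand, which contains the pairs) was in none of the 4 genes that rose. Dnaja4 held neither pair. A match says only that the letters are present.

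The full element of 3 units occurs in 0.798% of all promoters and was in 5 of the 52 heat shock genes with a matched promoter. These were Hspd1 and Hspe1, both lower in AD, and Hspa8, Hsph1 and Dnaja1, which did not pass. Hsp90aa1, Dnajc2 and Dnajc24, which fell, had no matched promoter and were not searched. The elements are shown with 10 bases on either side and with the element in capitals.
Hspa8, 213 bases before the start: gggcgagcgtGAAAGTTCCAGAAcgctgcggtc
Hspa8, 55 bases before the start: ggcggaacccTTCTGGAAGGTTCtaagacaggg
Hsph1, 36 bases before the start: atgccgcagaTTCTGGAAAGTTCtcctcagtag
Dnaja1, 9 bases after the start: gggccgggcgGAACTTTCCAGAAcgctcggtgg
Hspa8, the constitutive HSP70 of the cytosol, measured 5.76, 5.92 and 5.78 in AD and 5.96, 6.07 and 6.14 in Sham. The groups did not overlap but the change of -0.24 ± 0.09 (SE) was small and did not pass (adjusted p = 0.14), and its 4 probes ran from -0.24 to 0.48, so they differed in sign. RefSeq lists 33 pseudogenes named after Hspa8, and their part in its signals was not tested. Dnaja1, a J protein partner of Hspa8, had a change of 0.02 ± 0.08 (SE, adjusted p = 0.89).

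Hsph1 encodes HSP110 (HSP105), a nucleotide exchange factor for HSP70, and was the only tested gene in the role of inducible HSP70 and HSP110 genes. It measured 0.81, 0.97 and 1.16 in AD and 0.54, 0.64 and 0.25 in Sham. All AD values were higher, and the change of 0.51 ± 0.15 (SE) had an adjusted p of 0.071. It did not pass under any of the 20 alternatives, where the change ran from 0.28 to 0.59. Hspa1a, Hspa1b and Dnajb1, the classic inducible genes, matched no accession of the array and were not analysed here. Hspa1l, the testis relative of Hspa1a, was above background on 1 array and was not tested.

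Among constitutive and atypical HSP70 genes, 2 of 6 fell and 0 rose, with a median change of -0.25. Hspa4 encodes APG-2, which exchanges nucleotide on HSP70 and helps it to take aggregates apart. It measured 3.85, 3.98 and 3.81 in AD and 4.26, 4.49 and 4.57 in Sham. The AD arrays lay together below every Sham array, with a change of -0.56 ± 0.11 (SE, adjusted p = 0.033). Hspa14, the ribosome-bound HSP70, measured 1.04, 1.22 and 1.03 against 1.59, 1.53 and 1.71. Its change was -0.52 ± 0.10 (SE, adjusted p = 0.030), with no overlap. Hspa4l (-0.26), Hspa12a (-0.15) and Hspa2 (0.31) did not pass. For Hspa12a, an atypical HSP70 made in neurons, the second probe differed from the chosen one. It measured -0.89, -0.92 and -0.90 in AD and -0.07, -0.08 and -0.18 in Sham, a change of -0.79 ± 0.08 (SE, adjusted p = 0.018).

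Of the 2 cytosolic HSP90 genes 1 fell. Hsp90aa1, the inducible HSP90, measured 5.32, 5.40 and 5.30 in AD and 5.80, 5.74 and 6.04 in Sham. AD was lower on every array, with a change of -0.52 ± 0.11 (SE, adjusted p = 0.034). Its other 2 probes had changes of -0.26 (adjusted p = 0.12) and -0.34 (0.16), in the same direction. Under quantile normalization the change of the chosen probe was -0.27 and did not pass (adjusted p = 0.082). Hsp90ab1, the constitutive HSP90, measured 3.92, 3.87 and 3.82 in AD and 3.84, 3.41 and 3.41 in Sham. Sham replicate 1 overlapped the AD arrays, and the change of 0.32 ± 0.14 (SE) did not pass (adjusted p = 0.18). RefSeq lists 16 pseudogenes of Hsp90aa1 and 23 of Hsp90ab1.

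In mitochondria 3 of 9 genes fell and 0 rose, with a median change of -0.25. Hspd1, the HSP60 chaperonin, measured 3.66, 3.79 and 3.64 in AD and 4.07, 4.06 and 4.19 in Sham. Hspe1, its HSP10 lid, measured 4.32, 4.36 and 4.26 in AD and 4.64, 4.75 and 4.86 in Sham. Both genes were lower on every AD array, with changes of -0.41 ± 0.09 (SE, adjusted p = 0.040) for Hspd1 and -0.44 ± 0.09 (SE, adjusted p = 0.037) for Hspe1. The second Hspe1 probe changed by -0.29 (adjusted p = 0.11). Under quantile normalization neither gene passed, with changes of -0.21 (adjusted p = 0.10) for Hspd1 and -0.23 (0.095) for Hspe1.

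Hspd1 and Hspe1 are divergent neighbours whose starts lie 290 bases apart on chromosome 9, so the 211 bases that their promoter windows share (chr9:64084077-64084287, GRCr8) are the same DNA read on opposite strands. The Hspe1 window, chr9:64084077-64084376 (plus strand), is printed because it holds the Hspe1 start and DNA upstream of both genes. Capitals mark a run of 4 units with 2 overlapping elements of 3 units, 65 bases before the Hspe1 start and 242 before that of Hspd1.
Hspe1: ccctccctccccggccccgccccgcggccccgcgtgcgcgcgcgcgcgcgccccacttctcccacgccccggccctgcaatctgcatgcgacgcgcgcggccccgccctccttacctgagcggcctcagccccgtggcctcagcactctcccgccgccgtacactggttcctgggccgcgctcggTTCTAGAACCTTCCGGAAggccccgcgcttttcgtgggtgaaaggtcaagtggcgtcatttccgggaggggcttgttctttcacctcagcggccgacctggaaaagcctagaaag

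Among the other mitochondrial members, Dnajc19, a J protein of the import motor, measured 1.27, 1.22 and 1.08 in AD and 1.57, 1.55 and 1.69 in Sham. The change of -0.41 ± 0.10 (SE) passed with the highest adjusted p among the calls (0.044), and its second probe had a change of -0.11 (0.40). Dnajc15, a relative that also sits at the inner membrane, measured 1.76, 1.80 and 1.76 against 2.16, 2.19 and 2.01. All its AD values were lower, with a change of -0.35 ± 0.09 (SE) and an adjusted p of 0.052. Hspa9, the mitochondrial HSP70 mortalin, had a change of 0.20 ± 0.16 (SE, adjusted p = 0.43). Dnaja3, its J protein partner, had a change of 0.08 (adjusted p = 0.60).

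In the endoplasmic reticulum 2 of 12 genes fell and 0 rose, with a median of -0.04. Dnajc10 (ERdj5), a reductase that opens disulfide bonds for degradation, measured 1.37, 1.44 and 1.29 in AD and 1.75, 1.80 and 2.04 in Sham. It was lower on every AD array, with a change of -0.50 ± 0.11 (SE, adjusted p = 0.039). Dnajc18, a membrane J protein, measured -2.82, -2.91 and -2.79 against -2.49, -2.37 and -2.27. Its change was -0.46 ± 0.09 (SE, adjusted p = 0.034), also without overlap. The main stress-induced chaperones of the compartment did not pass: Hspa5 (BiP), the HSP70 of the lumen, had a change of -0.03 ± 0.10 (SE, adjusted p = 0.86), and Hsp90b1 (GRP94), the HSP90 of the lumen, one of 0.23 ± 0.09 (0.12). The J proteins of BiP, Dnajb9 (0.15), Dnajb11 (-0.03) and Dnajc3 (0.19), did not pass either. Dnajc22, whose Sham values of -3.72, -3.58 and -5.06 were far apart, had a change of -0.48 ± 0.39 (SE, adjusted p = 0.44).

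The ER stress element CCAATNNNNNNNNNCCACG is shown because ATF6 and XBP1 are known to read it. The promoters of Dnajb9 and Dnajb11 were searched and did not hold the element. The element occurs on either strand in 0.0657% of all promoters and in 3 heat shock genes, Hspa5, Hsp90b1 (on both strands) and Dnajc3, none of which passed. Capitals mark the element.
Hspa5, 43 bases before the start: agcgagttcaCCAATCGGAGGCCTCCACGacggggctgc
Hsp90b1, 176 bases before the start: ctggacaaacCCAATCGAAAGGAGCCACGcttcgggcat
Dnajc3, 133 bases before the start: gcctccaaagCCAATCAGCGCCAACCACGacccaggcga

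J proteins made up 35 of the tested genes, of which 1 rose and 6 fell, with a median change of -0.13. Dnaja4, a class A J protein of the cytosol, was the one that rose. It measured -0.30, -0.38 and -0.36 in AD and -0.91, -0.95 and -0.86 in Sham. Replicates lay within a narrow range in both groups, and the signal was 1.47-fold higher in AD (log2 change 0.56 ± 0.08, SE, adjusted p = 0.020). Dnaja2, of the same class, had a change of -0.29 (adjusted p = 0.17).

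In limma 0 of the 6 class B genes passed (2 had an unadjusted p under 0.05). Dnajb5, a partner of HSP70, measured -2.49, -2.40 and -2.24 in AD and -3.02, -2.93 and -2.64 in Sham. All its AD values were higher, with a change of 0.49 ± 0.13 (SE, adjusted p = 0.063), which was 0.16 (0.49) with normexp correction, or 0.30 relative to the median of all probes. Dnajb3 had a change of -0.38 ± 0.12 (SE, adjusted p = 0.088). Dnajb6, which suppresses the aggregation of polyglutamine and amyloid peptides, had overlapping groups and a change of -0.29 ± 0.16 (SE, adjusted p = 0.28).

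Class C J proteins of the nucleus and cytosol included the largest fall. In this group 3 of 8 fell and 0 rose, with a median change of -0.26. Dnajc9, a cochaperone of HSP70 that also binds histones, measured 1.59, 1.29 and 1.37 in AD and 2.14, 2.23 and 2.52 in Sham. AD lay well below Sham, with means of 1.42 ± 0.15 and 2.29 ± 0.20 (SD, n = 3 each), so that the signal was 1.84-fold higher in Sham (log2 change -0.88 ± 0.14, SE, adjusted p = 0.022). Dnajc2 (zuotin), which works with Hspa14 at the ribosome, measured 1.06, 1.08 and 0.99 against 1.47, 1.49 and 1.68. Both partners of this ribosomal pair were thus lower, with a change of -0.50 ± 0.09 (SE, adjusted p = 0.030) for Dnajc2. Dnajc24, needed to make diphthamide on the elongation factor of translation, measured -0.12, -0.04 and -0.10 against 0.33, 0.34 and 0.49. Its groups were apart and its change was -0.47 ± 0.09 (SE, adjusted p = 0.028). Dnajc21, a factor of ribosome maturation, did not pass (-0.28, adjusted p = 0.066).

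The vesicle and membrane J proteins showed no call among 3 tested genes (0 had an unadjusted p under 0.05). Dnajc5b and Dnajc5g, of the same role, were too dim to test. Dnajc5, the cysteine string protein that keeps synaptic SNARE proteins folded, measured -1.01, -0.97 and -0.90 in AD and -0.90, -0.87 and -0.73 in Sham. AD replicate 3 and Sham replicate 1 were almost level, and the change was -0.13 ± 0.09 (SE, adjusted p = 0.37). Dnajc27 (-0.17) had overlapping groups. Dnajc6 (auxilin), which uncoats synaptic vesicles, matched no accession of the array and was not analysed here. Of the proteins that bind HSPs, Hspbap1, which binds HSP27, measured -0.02, 0.00 and -0.12 in AD and 0.56, 0.50 and 0.38 in Sham. It was lower on every AD array, with a change of -0.53 ± 0.09 (SE, adjusted p = 0.026). Hspbp1, an exchange factor of HSP70, had a change of -0.06 (adjusted p = 0.79).

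**Figure D4:**
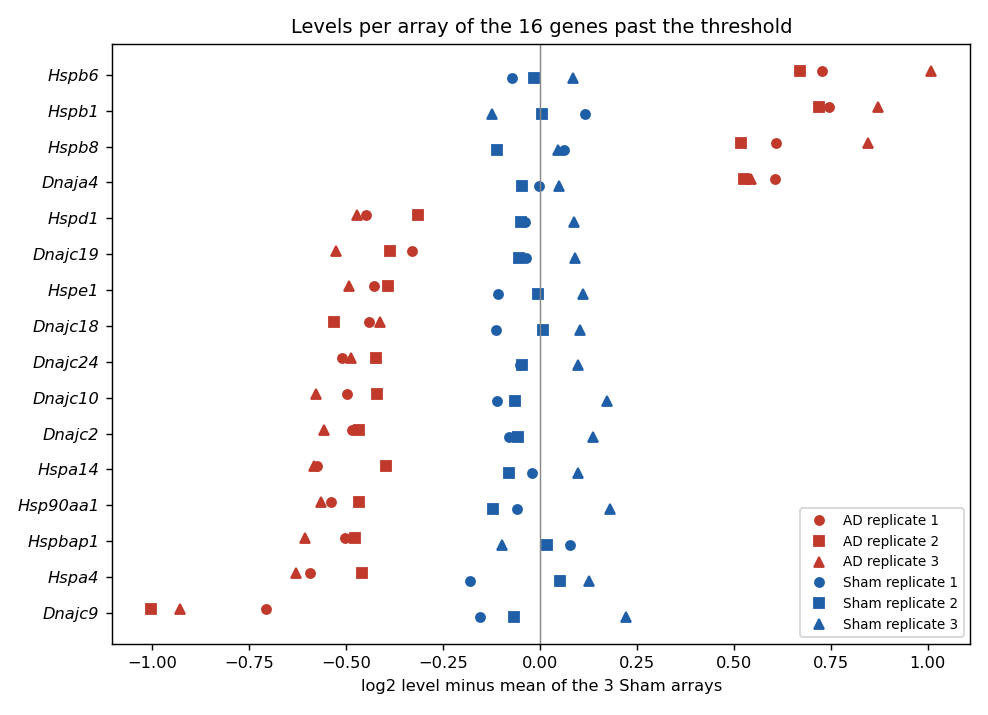
The 16 genes past the threshold, each array shown as the log2 level minus the mean of the 3 Sham arrays (red AD, blue Sham, marker shape the replicate number). In every gene the AD points lie on 1 side of all Sham points. AD replicate 3 is the highest of the AD arrays in Hspb6, Hspb1 and Hspb8.

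Calls in the rest of the chaperone network are read against the 14.9% of named genes called in either direction. Among heat shock factors and regulators, Hsf2 fell by 0.48 on the log2 scale (adjusted p = 0.035), while Hsf1, the main factor of the heat shock response, had a change of 0.14 (0.32), so that 0 of 4 rose and 1 fell. Of 14 HSP90 cochaperones 1 fell, the cyclophilin Ppid (change -0.91 ± 0.10, SE, adjusted p = 0.018). Of 15 HSP70 cochaperones without a J domain 2 fell: Bag5, an exchange factor, by 0.99 (adjusted p = 0.020) and the ubiquitin ligase Stub1 (CHIP) by 0.47 (0.038) on the log2 scale. Bag3, the partner of Hspb8, did not pass (-0.31, adjusted p = 0.13). The cytosolic chaperonin TRiC with prefoldin, which folds actin and tubulin, had 4 of 12 lower and a median change of -0.24. These were Cct8 (-1.07, adjusted p = 0.018), Tcp1 (-0.62, 0.021), Cct6a (-0.49, 0.046) and Cct3 (-0.46, 0.049). In the list of ER folding and unfolded protein response genes 1 of 15 fell, Xbp1 (-0.74, adjusted p = 0.022), and the median was -0.01. In limma 0 of 8 other mitochondrial chaperones and proteases passed (1 with an unadjusted p under 0.05), the largest changes being those of Hscb (-0.45, adjusted p = 0.056) and Yme1l1 (0.33, 0.40). Of 5 genes for crystallins, clusterin and haem oxygenase 1 rose, the extracellular chaperone Clu (0.54, adjusted p = 0.036).

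Markers of several cell types moved with the groups, and their part in the chaperone results was not tested. GABAergic interneuron markers fell in 7 of 12 genes (median change -0.76), with a summed level of 70.3 to 74.8 times the 75th percentile in AD and 121 to 124 in Sham. General neuronal markers fell in 6 of 11 (median -0.41, summed level 89.8 to 99.6 against 117 to 138). Oligodendrocyte markers rose in 5 of 10 (median 0.40, 106 to 126 against 116 to 168) and endothelial and pericyte markers in 3 of 9 (median 0.24, 9.37 to 10.7 against 10.4 to 10.9), although neither summed level lay above its Sham range. Immediate early genes, induced within minutes by neuronal activity or stress, rose in 5 of 10 with a median of 0.71. In limma 0 of 9 astrocyte, 0 of 10 microglia and 0 of 5 vascular smooth muscle markers passed (1, 1 and 0 with an unadjusted p under 0.05), with medians of -0.21, -0.01 and 0.07. Of 6 markers of excitatory neurons 1 fell, with a median of 0.20, and 0 of 9 ependymal and 0 of 5 erythroid markers passed (1 each with an unadjusted p under 0.05). Markers of neurons, astrocytes, oligodendrocytes and microglia were thus measured in tissue labelled hippocampal, and Cnn1 of smooth muscle was the only cell type marker at background on all arrays.

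Skeletal muscle markers were higher on all AD arrays than on any Sham array in their median, and choroid plexus markers on AD replicates 1 and 3 only. The 12 tested muscle markers had medians of 1.02, 0.67 and 2.50 (log2, Sham mean subtracted) in the order of the AD replicates and of -0.07, -0.07 and 0.14 in Sham, with 2 of 12 called higher and a summed level of 3.66 to 9.07 in AD against at most 3.04 in Sham. The 12 choroid plexus markers had medians of 2.76, 0.37 and 3.58 in AD and -0.34, -0.05 and 0.45 in Sham, with 0 of 12 called in limma (8 with an unadjusted p under 0.05) and a summed level of 82.6 to 147 against 28.0 to 104. The 6 tested small HSP genes, several of which are strongly expressed in muscle, had medians of 0.64, 0.54 and 0.73 on the AD arrays. Of these genes 4 were higher on average in AD, while Hspb7 (-0.30) and Hspb9 (-0.22) were lower. AD replicate 3 was the highest in all 3 groups and AD replicate 2 the lowest. The part of muscle RNA in the small HSP changes was not tested. Without AD replicate 3 the changes were 0.73 for Hspb1, 0.70 for Hspb6 and 0.56 for Hspb8, none past the threshold (limma adjusted p = 0.085, 0.085 and 0.090). The sign of these changes could not turn, because the groups did not overlap. This fit is no test of muscle RNA, since muscle markers were also higher on AD replicates 1 and 2 (1.02 and 0.67).

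**Figure D5:**
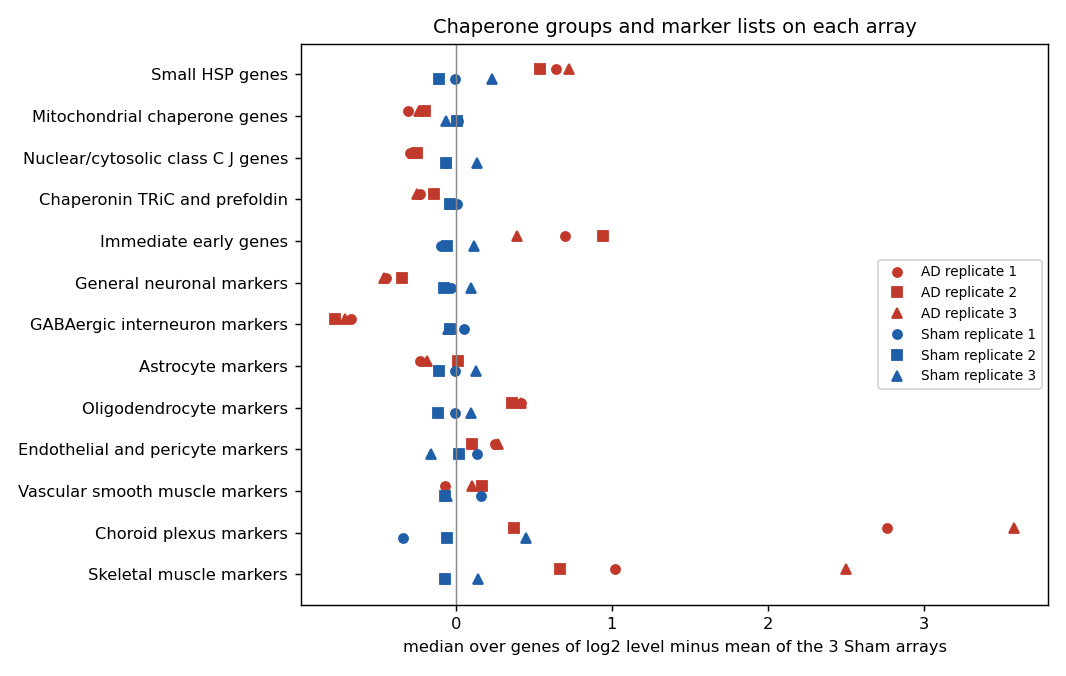
Median over the genes of a group of the log2 level with the Sham mean subtracted, shown array by array (red AD, blue Sham, marker shape the replicate number). The 3 AD arrays lie close together for the small HSP, mitochondrial and class C J protein genes and apart for the choroid plexus and skeletal muscle markers.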

How the data were processed

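Hippocampal RNA of 3 AD and 3 Sham samples, grouped by the labels, was hybridised to single-colour Agilent rat arrays. The deposited scanner output gives the intensity of every spot after background subtraction, made with Agilent Feature Extraction 11.0.1.1 per the file headers. The authors also deposited a table on a log2 scale, of unstated scaling (median 6.56 on all 6 arrays). In it AD replicates 2 and 3 are exchanged, and it served as an alternative only.

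Control spots and spots marked as outliers (400 to 559 an array) were dropped before averaging by probe. Levels are log2 intensity minus the array's 75th percentile (signals of 795 to 932 in AD, 429 to 755 in Sham). Of 30367 probes, 70.7% to 79.7% were well above background, and 22818, so on at least 3 of 6 arrays, were tested. Arrays correlated with r of 0.976 or more, and 0 spots were saturated. The number of arrays limits the precision. Accessions were matched without version to RefSeq symbols (GRCr8), which named 18005 probes. The array uses another build, so probes have no coordinates here. AD and Sham were compared with limma 3.58.1 in R 4.3.3 (lmFit and eBayes, two-sided, Benjamini-Hochberg over all tested probes, threshold 0.05), which was tested on simulated data. Normexp correction (offset 50) used median spot signals. Matched promoters came from RefSeq.

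The members, gene lists, tests and named genes were chosen with earlier results of these data known. The rule named every called member, the 2 largest changes of each role, 13 well-known members whatever their values, and up to 4 called genes of each other list. Not every gene it takes is described. Of the 65 members, 7 were too dim to test.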

Additional observations from a re-analysis of the deposited data

How the results depend on the processing

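All 16 called heat shock genes kept their direction under all 20 alternatives, which for many of these was fixed beforehand, but the counts did not hold. Their groups did not overlap, and filters, replicate and slide position blocks and the t-test do not alter their estimates. The 4 higher and 12 lower calls, of 2863 over all probes, became 5 and 7 with quantile normalization, with the 75th percentile taken over probes detected on all arrays, and with the deposited table, where the median change of the members was -0.068, -0.055 and -0.067. Quantile normalization and the deposited table lost Hspd1, Hspe1, Hsp90aa1, Dnajc10 and Dnajc19 and gained Hsp90b1. With 2539 and 2538 calls over all probes, they gave nearly the same result and are not separate checks. The other percentile lost Dnajc18 in place of Hsp90aa1 and gained Dnajb5. The choice of percentile also moved the share of higher calls over all probes from 33.1% to 53.2%, and median centring moved it to 24.2%. Normexp correction gave 2 higher and 8 lower calls (1653 over all probes, 17.2% of them higher) and lost Hspb6, Hspb8, Hspd1, Hspe1, Dnajc18, Dnajc19 and Dnajc24. Array weights gave 8 and 20 (8765 over all probes, 45.3% higher), and the methods' t-test 1845 over all probes after Benjamini-Hochberg adjustment, with 3 and 11 in the members. Comparing within scan day 1, the same fit as leaving out Sham replicate 3, gave 7 higher and 14 lower (4453 over all probes, 44.7% higher). Without a filter on dim probes, with scan as a random block (consensus correlation 0.49) and with slide position as a block, limma called 0 probes and 0 members, though 7091, 3668 and 6489 probes had an unadjusted p under 0.05. The cause was not tested. Leaving out each array in turn gave 0 to 4453 calls over all probes, 0 to 7 higher members and 0 to 14 lower members. With the replicate block there were 0 calls (6489 probes and 22 members with an unadjusted p under 0.05). Deviations of same-numbered arrays correlated at 0.03, 0.07 and 0.14. AD replicates 2 and 3 correlated best with the Sham array of the same number, and AD replicate 1 with Sham replicate 2 (0.06). The labels do not say whether replicate numbers pair the arrays, and these low correlations do not decide it. The members' median ran from -0.19 to -0.055. Calls are limited by 3 arrays per group, and the dimmest members by their signal over background.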

Other observations

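Of the 11 genes measured by more than 1 tested probe, 10 had probes that all changed in the same direction and 1, Hspa8, did not. Called and uncalled probes of a gene stood side by side for Hsp90aa1, Hspe1, Dnajc19 and Hspa12a. RefSeq lists 125 pseudogenes with names built on heat shock symbols, among them 20 for Hspd1 and 10 for Dnajb6.

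Of the 76 RefSeq symbols with these prefixes, 11 matched no accession of the array and were not analysed here: Hspa1a, Hspa1b, Hspa12b, Hspd1l1, Hspd1l2, Dnajb1, Dnajb14, Dnajc1, Dnajc6, Dnajc13 and Dnajc17l1.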
